A study of Mus musculus with 4 samples.

Results

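The MHC class I antigen presentation genes described here were H2-K1, H2-D1, B2m, Tap1, Tap2, Tapbp, Psmb8, Psmb9 and Psmb10. They were measured by every probe for gene transcripts on the array that bears 1 of these 9 names, which gave 17 of 41174 probes and 9 of 27745 gene names. Mouse RNA was compared in 2 colours on 4 Agilent arrays that cover the whole genome. On 2 arrays the red channel (Cy5) held RNA of a clone of induced pluripotent stem (iPS) cells, harvested 30 days after transduction and grown with leukemia inhibitory factor at 1000 IU/ml. On the other 2 arrays it held RNA of mouse embryonic fibroblasts (MEFs) that had been passaged several times. The green channel (Cy3) of all 4 arrays carried RNA of CGR8.8, a line of embryonic stem (ES) cells, also grown with 1000 IU/ml of leukemia inhibitory factor. The iPS cells stand for 1 clone, and the labels name neither its reprogramming factors nor the mouse strain of the iPS cells or the MEFs. The labels call the 2 arrays of a group biological replicates without saying that the cultures were separate, so the spread behind the p-values may be technical in part. The dyes were not swapped, so a dye effect of a probe would stay in its ratio over ES cells and cancel in iPS cells over MEFs.

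MHC class I molecules carry peptides from inside the cell to its surface, where CD8 T cells and natural killer cells read them. Proteasomes cut the peptides, the TAP transporter moves them into the endoplasmic reticulum, and tapasin helps to load them onto a heavy chain bound to beta-2-microglobulin. Interferon gamma raises most genes of the pathway, and pluripotent cells are known for little class I on their surface.

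Of the 17 probes, 13 lay on chromosome 17, inside the mouse MHC, and belonged to 7 of the 9 genes. B2m lies on chromosome 2 and Psmb10 on chromosome 8. Positions are those of the array annotation on build mm8, and exon and UTR annotation of that build was not used here. The probes of Psmb9, Tap1, Psmb8 and Tap2 lay within 33.1 kb, at chr17:33792517-33825639.

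Upstream stretches are shown for B2m, for the 2 heavy chains and for Tap1, because these genes differed from each other in the ratios described below. The sequences are the 250 bases before the start in RefSeq, build GRCm38, given 5′ to 3′ on the strand of the gene. In B2m (chr2:122147437-122147686, plus strand) capitals mark GAAANNGAA, GGGACTTTC, TGACG and CCAAT. In H2-K1 (chr17:34000348-34000597, minus strand, the outer of 2 listed starts) and H2-D1 (chr17:35262844-35263093, plus strand) they mark GGGATTCCC, GAANNGAAA, TGACG and CCAAT. In Tap1 (chr17:34187306-34187555, plus strand) they mark TGACG and CCAAT. Each motif was searched on both strands, and no marked motif overlaps another.
B2m: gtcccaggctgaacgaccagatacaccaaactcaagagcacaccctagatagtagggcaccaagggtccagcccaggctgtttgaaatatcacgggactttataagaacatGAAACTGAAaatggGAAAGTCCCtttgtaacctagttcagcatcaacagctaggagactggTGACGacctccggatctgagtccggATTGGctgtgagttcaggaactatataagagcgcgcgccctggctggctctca
H2-K1: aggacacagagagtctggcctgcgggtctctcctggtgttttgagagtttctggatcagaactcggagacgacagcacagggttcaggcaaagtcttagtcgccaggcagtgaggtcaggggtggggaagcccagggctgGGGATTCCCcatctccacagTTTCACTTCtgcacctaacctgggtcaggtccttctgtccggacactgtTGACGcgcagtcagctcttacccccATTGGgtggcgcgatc
H2-D1: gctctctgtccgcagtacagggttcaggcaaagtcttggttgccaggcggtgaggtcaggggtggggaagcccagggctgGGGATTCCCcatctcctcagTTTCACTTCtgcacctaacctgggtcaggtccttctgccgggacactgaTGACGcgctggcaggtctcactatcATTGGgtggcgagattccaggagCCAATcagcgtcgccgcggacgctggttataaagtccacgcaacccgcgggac
Tap1: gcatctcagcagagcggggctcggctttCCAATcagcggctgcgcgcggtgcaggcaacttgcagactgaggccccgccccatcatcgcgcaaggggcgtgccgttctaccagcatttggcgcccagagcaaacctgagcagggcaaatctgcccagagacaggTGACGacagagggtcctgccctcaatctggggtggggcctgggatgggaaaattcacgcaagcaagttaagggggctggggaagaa

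A promoter entry was found for 8 of the 9 genes, all but Tap2. GGGATTCCC, the centre of the class I kappa B site, occurred in H2-K1 and H2-D1 and in 0.301% of all 32851 upstream stretches of this length. Aligned on it, the H2-K1 and H2-D1 stretches had 87.4% identical bases over 190 positions. GAANNGAAA also occurred in both heavy chain genes, and in 6.31% of all stretches. GAAANNGAA, letters of the interferon-stimulated response element, occurred in B2m and in 7.13% of all stretches, and the kappa B letters GGGACTTTC in B2m and in 0.289%. TGACG was in 5 of the 8 (H2-K1, H2-D1, B2m, Tap1 and Psmb9) and in 17.8% of all, and CCAAT in those 5 and Tapbp and in 33.8%. The letters TTCNNNGAA of the interferon gamma activated site were in Psmb8 and in 7.02% of all. Psmb9 and Tap1 are read in opposite directions from starts with 225 bases between them, so the Tap1 stretch above holds the whole interval. The TGACG and CCAAT marked in Tap1 lie in this interval and were counted for both genes, so they are not separate occurrences. These matches describe letters in a window and carry no measurement of binding.

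The arrays were alike in detection, with 61.1% to 63.4% of gene probes well above background in each channel. The log2 ratios of replicate arrays correlated at 0.989 for MEFs and 0.992 for iPS cells over all tested probes. MEF replicate 1 alone had spots with a local background above 500, and its 14 such spots are described below. All 17 class I pathway probes were well above background in all 8 channels, and none was saturated. Pluripotency markers fell in MEFs for 7 of 7 tested genes, and fibroblast markers rose in MEFs for 8 of 9. In iPS cells 4 of 7 pluripotency markers were higher than in ES cells and Pou5f1 fell by 1.35 on the log2 scale, while 5 of 9 fibroblast markers fell. Leukocyte markers, which bear on the class I genes because leukocytes express them strongly, were split. In iPS cells 1 of the 10 tested was higher than in ES cells (Laptm5) and 3 were lower (Cd68, Aif1 and Coro1a), and in MEFs 2 were higher (Adgre1 and Cd14) and 2 lower (Cd68 and Coro1a). The list ranged from -1.36 to 1.53 in iPS cells and from -1.81 to 1.39 in MEFs. Ptprc, the common leukocyte antigen, was not well above background in iPS cells or in ES cells. The part of other cells in the class I ratios was not tested, and in RNA of whole cultures fewer cells of a type and less RNA per cell cannot be told apart.

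All 9 class I pathway genes fell in iPS cells relative to ES cells, and 7 of them fell in MEFs, where B2m rose. Both ratios have RNA of the same ES line as denominator, so a level particular to that RNA would enter both. The first comparison asks how the reprogrammed clone differs from ES cells. A probe was called where the adjusted p of limma was below 0.05 (Benjamini-Hochberg over 24874 tested probes) and the change was at least 2-fold. In iPS cells over ES cells 15 of the 16 tested pathway probes fell and 0 rose, where 10.7% of all tested probes fell and 8% rose (18.7% in either direction). The median log2 ratio was -2.01 over the pathway probes and -0.01 over all tested probes, and adjusted p of the called probes lay between 4.86e-09 and 1.92e-06. At any fold all 16 had an adjusted p below 0.05, as did 78.1% of all tested probes. By gene, with each gene at its brightest probe, 9 of 9 fell, where 11.8% of all genes fell and 9.08% rose. With the background fitted over all spots, 13 pathway probes fell, and 1785 of all 24874 tested probes. The values of Psmb9 (-2.24) and of H2-K1 at A_52_P50496 (-1.65) were kept. Their adjusted p by limma were 0.131 and 0.0696, and Psmb9 has no other probe.

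In MEFs over ES cells 10 pathway probes fell, 2 rose and 4 were not called, against 12.4% of all tested probes that fell and 12.8% that rose (25.2% in either direction). At any fold all 16 had an adjusted p below 0.05, as did 82.5% of all tested probes. The median log2 ratio was -1.20, against -0.012 over all tested probes. By gene 7 fell, B2m rose and Tap1 was not called, where 13.6% of all genes fell and 13.8% rose. These MEF calls rest on which spots the background was fitted on. On the array of MEF replicate 1, 14 spots had a local background above 500, all of them marked as outliers by the scanner software, against 0 spots on the other 3 arrays. With all spots of each array in the fit, the Psmb8 ratio of MEF replicate 1 was -0.89 in place of -3.91, and none of the 24874 probes was called in MEFs over ES cells by limma, although 2389 of them, 9 pathway probes included, had an unadjusted p below 0.05. In fits chosen after seeing this, adding these 14 spots alone to the unmarked ones gave -0.84 and again 0 calls (2260 probes at an unadjusted p below 0.05), and all spots without these 14 gave -3.9 and 12 pathway calls. With each array's ratios centred on their median in place of loess, 7 pathway probes were called, 2 of them higher and 5 lower. Of all 24874 tested probes, 4716 were then called higher and 2022 lower.

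**Figure D1:**
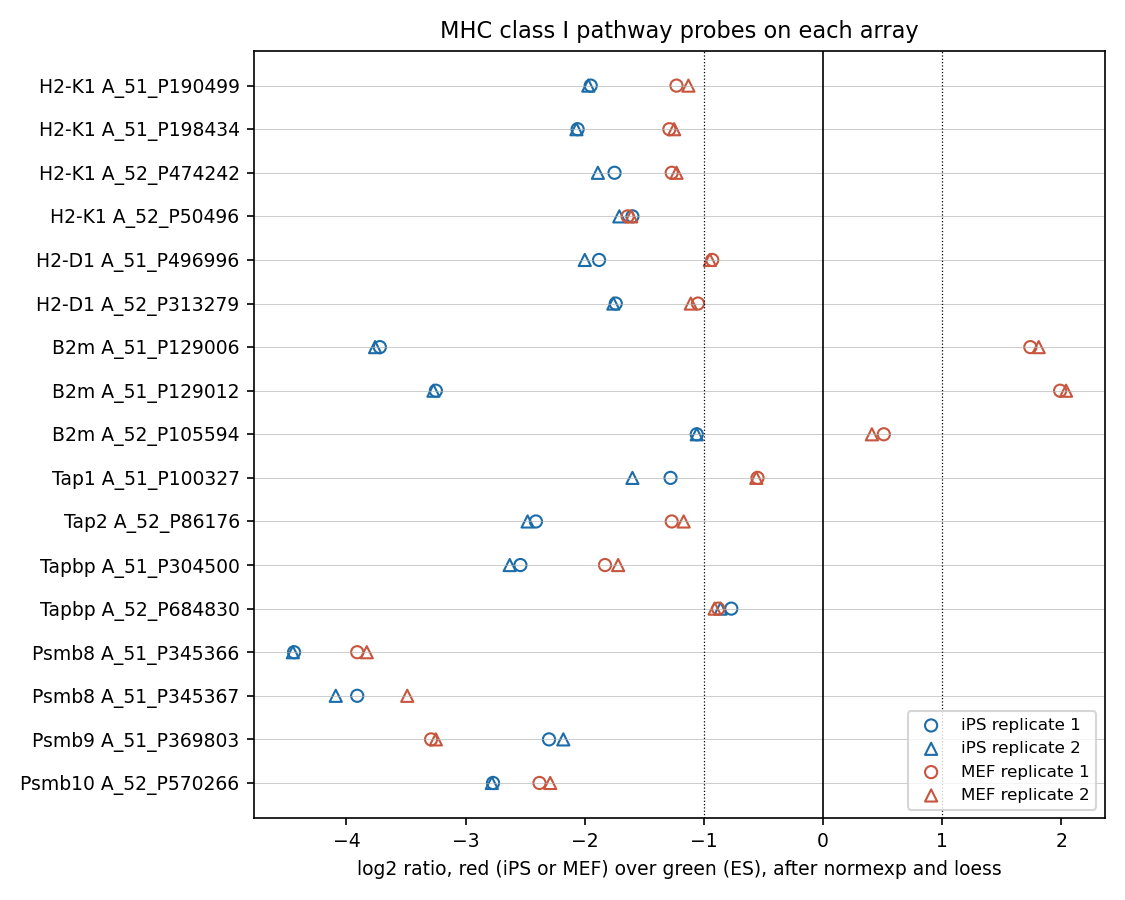
Log2 ratio of red (iPS or MEF) over green (ES) for each of the 17 probes on each of the 4 arrays, with dotted lines at 2-fold. Every iPS point lies left of 0, the B2m points of MEFs lie right of 0, and Psmb9 is the probe at which MEFs lie clearly left of iPS cells.

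The heavy chains H2-K1 and H2-D1, the polymorphic chains that hold the peptide, were lower after normalization in both cell types than in ES cells. The strain of the iPS cells and MEFs is not given, and a part of allele differences in these ratios was not tested. The probe of H2-K1 printed as 10 spots, A_51_P198434 (chr17:33606564-33606623), had log2 ratios of -2.06 and -2.07 on the iPS arrays, against -1.29 and -1.25 on the MEF arrays. The 7 to 10 usable spots of this probe varied by an SD of 0.029 to 0.068 on any array. Single spots ranged from -2.17 to -1.98 in iPS cells, against -1.34 to -1.20 in MEFs. Spots of the same array are repeats within a hybridization and do not measure the spread between samples. The fall was 4.18-fold in iPS cells (-2.06 ± 0.046, SE, n = 2 arrays) and 2.42-fold in MEFs (-1.27 ± 0.046, n = 2). In the deposited signals, iPS cells gave 5640 and 6180, MEFs gave 12500 and 10800, and ES cells gave 14300 to 15400. Red and green are not on the same scale before normalization. The median signal of an array was 113 to 134 in red and 65.6 to 68.2 in green. The size of the fall over ES cells therefore rests on the normalization.

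A neighbouring H2-K1 probe, A_51_P190499 (chr17:33606572-33606626), covers 52 of the same genomic bases and is no independent measure of the gene. Its sequence was taken from another H2-K1 record, and 8 of 57 aligned bases differed. The 30 aligned bases with the most differences are shown because the pair reads 1 place with different letters, and capitals mark the bases that differ.
A_51_P190499: tgaatAtGaccttgattgttatcatTGtga
A_51_P198434: tgaatGtAaccttgattgttatcatCTtga
Despite these differences its log2 ratios were close, at -1.95 and -1.97 in iPS cells, against -1.23 and -1.13 in MEFs.

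The other 2 H2-K1 probes each hold a reading frame without a stop codon, unlike the pair above. With the background fitted on unmarked spots, the gap between iPS cells and MEFs was smaller at both. Over all spots the log2 gaps were -1.15 at A_52_P474242 and -0.80 at A_52_P50496. Those of A_51_P190499 and A_51_P198434 were then -1.09 and -0.86, so the order depends on the fit. The 2 probes are shown because they come from 1 gene and gave different gaps.
A_52_P474242: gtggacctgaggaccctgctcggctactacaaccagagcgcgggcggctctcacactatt
A_52_P50496: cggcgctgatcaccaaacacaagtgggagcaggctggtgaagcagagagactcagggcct
The first, at chr17:33609987-33610233, covers 247 bases of genome with 60 bases of probe, as a probe across an intron would. Its log2 ratios were -1.75 and -1.89 in iPS cells, against -1.27 and -1.23 in MEFs. The second, at chr17:33609797-33609856, gave -1.60 and -1.71 in iPS cells, against -1.64 and -1.61 in MEFs, and here the groups overlapped. All 4 H2-K1 probes fell in both cell types relative to ES cells, by 3.14-fold to 4.18-fold in iPS cells and by 2.27-fold to 3.08-fold in MEFs. With median centring, 3 of the 4 lay under 2-fold in MEFs, at -0.65, -0.64 and -0.93.

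H2-D1 was measured by a pair of probes. A_51_P496996 (chr17:34874545-34874777) had log2 ratios of -1.88 and -2.0 in iPS cells, against -0.93 and -0.95 in MEFs. A_52_P313279 (chr17:34874240-34874299) had -1.74 and -1.76 in iPS cells, against -1.05 and -1.11 in MEFs. At both probes the iPS arrays lay below the MEF arrays, but neither was called in iPS cells over MEFs. In that comparison 79.8% of all tested probes differed at any fold by limma (adjusted p below 0.05). H2-D1 fell in iPS cells by 3.83-fold and 3.36-fold at the 2 probes (adjusted p = 5.68e-08 and 6.51e-08). In MEFs A_52_P313279 fell 2.12-fold and A_51_P496996 stayed under the limit at 1.92-fold, and with median centring A_52_P313279 was at -0.50. Tested against a fold of 2, A_52_P313279 was not called in MEFs (adjusted p = 0.283), while A_51_P496996 passed the limit there, at -1.02, with the scanner software's processed signals and with the series' own values (adjusted p = 0.000525 and 0.000532). The accessions of A_52_P313279 belong to H2-D1 and to the class I gene H2-Q2, so its signal cannot be given to H2-D1 alone, whereas those of A_51_P496996 belong to H2-D1.

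B2m, the invariant light chain without which class I heavy chains do not reach the surface, was the pathway gene with opposite changes in the 2 cell types. Its probe with 10 spots, A_51_P129006 (chr2:121844230-121844286), gave log2 ratios of -3.72 and -3.76 in iPS cells, against 1.74 and 1.81 in MEFs. Its second probe, A_51_P129012 (chr2:121844106-121844165), gave -3.25 and -3.27 in iPS cells, against 1.99 and 2.04 in MEFs. Single spots of the first ranged from -3.87 to -3.63 in iPS cells, against 1.69 to 1.91 in MEFs. B2m thus fell 13.4-fold and 9.58-fold in iPS cells and rose 3.42-fold and 4.04-fold in MEFs, each over ES cells, with adjusted p between 5.67e-09 and 4.95e-08. The deposited signals of A_51_P129006 show the same order without any normalization: iPS cells gave 490 and 513, MEFs gave 28600 and 25400, and ES cells gave 4170 to 4770.

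The third B2m probe, A_52_P105594 (chr2:121840304-121840363), was designed on a cDNA clone record that lies upstream of the other probes. It was dim, with signals of 73.5 and 79 in iPS cells, 312 and 261 in MEFs, and 110 to 127 in ES cells. Its log2 ratios had the same signs and smaller sizes, at -1.06 on both iPS arrays, against 0.51 and 0.41 on the MEF arrays. It fell 2.09-fold in iPS cells and was not called in MEFs (0.46 ± 0.050, adjusted p = 8.16e-05). Tested against a fold of 2 rather than 0, the fall in iPS cells was not called (adjusted p = 0.788). The offset of 50 that was added to both channels pulls the ratios of such dim spots towards 0. With the scanner software's processed signals its value was -2.61 in iPS cells and 0.64 in MEFs.

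**Figure D2:**
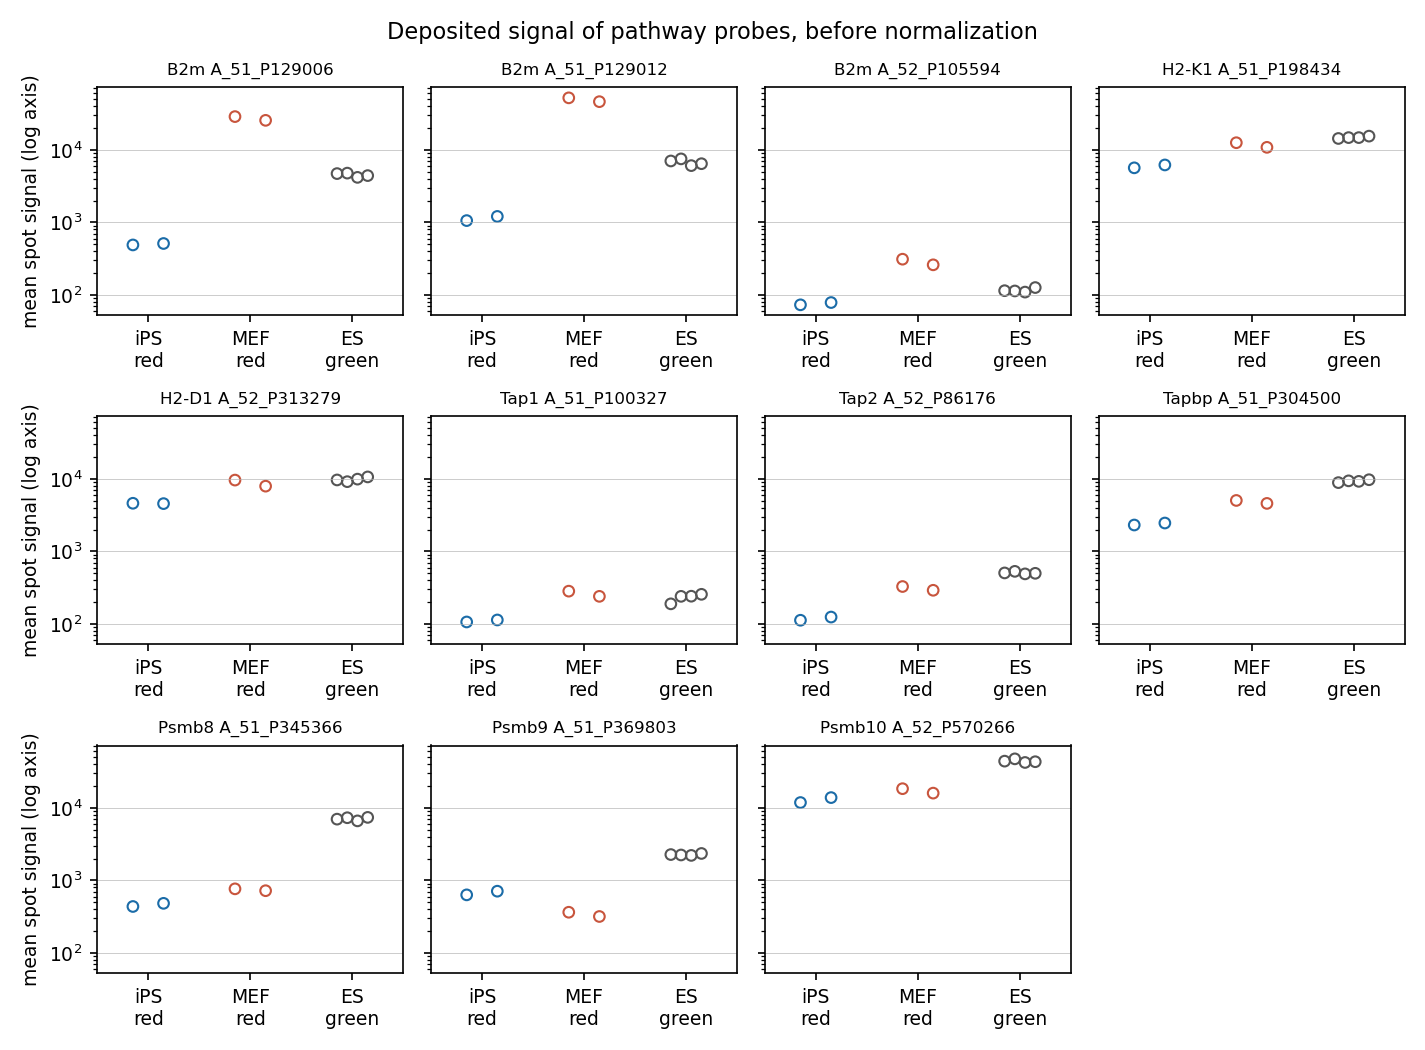
Deposited mean signal of 11 pathway probes, before normalization, on a log axis, with 2 iPS arrays, 2 MEF arrays and the ES channel of all 4 arrays as single points. B2m spans from 490 in iPS cells to 28600 in MEFs at A_51_P129006, where the ES points lie from 4170 to 4770. The ES points of Tap1 lie from 190 to 257. Red and green are not on the same scale here.

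The transporter subunits Tap1 and Tap2, which together form the channel that carries peptides into the endoplasmic reticulum, both fell in iPS cells. Tap1 (A_51_P100327, chr17:33804121-33804180) had log2 ratios of -1.28 and -1.60 in iPS cells, against -0.55 and -0.56 in MEFs. Tap2 (A_52_P86176, chr17:33825052-33825639) had -2.41 and -2.48 in iPS cells, against -1.27 and -1.17 in MEFs. In both genes the iPS arrays lay below the MEF arrays, and in iPS cells over MEFs Tap2 was called and Tap1 was not. Tap1 fell 2.71-fold in iPS cells (-1.44 ± 0.076, adjusted p = 1.92e-06) and was not called in MEFs (-0.55 ± 0.076). Tap2 fell 5.44-fold in iPS cells and 2.33-fold in MEFs, and with median centring its MEF value was -0.99. With the scanner software's processed signals, to which no offset was added here, the values in iPS cells were larger, at -3.35 for Tap2 and -2.18 for Tap1. Both probes were dim in red, at 107 to 125 in iPS cells and 241 to 329 in MEFs, and Tap1 had the largest SE of the pathway.

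Tapbp, which codes for tapasin, was measured by a pair of probes that differed. The downstream probe, A_51_P304500 (chr17:33539531-33539590), gave log2 ratios of -2.54 and -2.63 in iPS cells, against -1.83 and -1.72 in MEFs. The probe A_52_P684830 (chr17:33536605-33536664) gave -0.77 and -0.86 in iPS cells, against -0.88 and -0.91 in MEFs. The first fell 6.01-fold in iPS cells and 3.42-fold in MEFs, and was not called in iPS cells over MEFs. The second was called in neither, at 1.76-fold and 1.86-fold below ES cells. With the scanner software's own processed signals it passed the limit in MEFs at -1.11.

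The 3 inducible proteasome subunits, which replace constitutive subunits and change the cut that is made, were lower than in ES cells in both cell types. Psmb8 (A_51_P345366, chr17:33811095-33811419) gave log2 ratios of -4.44 and -4.45 in iPS cells, against -3.91 and -3.83 in MEFs. Psmb10 (A_52_P570266, chr8:108824906-108824965) gave -2.77 and -2.78 in iPS cells, against -2.38 and -2.29 in MEFs. Psmb9 (A_51_P369803, chr17:33792517-33792576) ran the other way round, with -2.30 and -2.18 in iPS cells, against -3.29 and -3.25 in MEFs. With the background fitted on unmarked spots, the arrays of iPS cells and MEFs were apart at each of the 3 genes. At any fold, 79.8% of all tested probes differed between iPS cells and MEFs by limma (adjusted p below 0.05). Over all spots the MEF arrays were at -0.26 and -3.25 for Psmb9 and at -3.22 and -2.29 for Psmb10. Both genes then overlapped between iPS cells and MEFs. Psmb8 fell 21.8-fold in iPS cells and 14.6-fold in MEFs, Psmb9 fell 4.73-fold and 9.66-fold, and Psmb10 fell 6.84-fold and 5.04-fold. Psmb8 was thus the lowest of the 16 tested pathway probes in both cell types. B2m came next in iPS cells and Psmb9 in MEFs, and each gap exceeded the SE of 0.048 to 0.052. The order in MEFs holds for this background fit: over all spots Psmb10 was lowest (-2.76), before Psmb8 (-2.36) and Psmb9 (-1.75).

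The second Psmb8 probe, A_51_P345367 (chr17:33811038-33811097), had no value on the array of MEF replicate 1, where the scanner software marked its spot as an outlier, and was left out of the tests. The pair is shown because it reads adjacent parts of 1 transcript, and capitals mark the 3 bases that both hold.
A_51_P345367: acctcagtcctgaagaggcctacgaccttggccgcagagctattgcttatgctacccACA
A_51_P345366: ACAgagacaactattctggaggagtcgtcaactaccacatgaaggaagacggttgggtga
On the other 3 arrays A_51_P345367 gave -3.91 and -4.09 in iPS cells, against -3.49 in MEF replicate 2. Its deposited red signal on the array with the marked spot was 867, next to 785 on the other MEF array, and the green signals were 6150 and 6330.

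The constitutive counterparts did not share these sizes. Psmb5, the counterpart of Psmb8, had log2 ratios of -0.21 and -0.19 in iPS cells, against -0.39 and -0.36 in MEFs. Psmb6, the counterpart of Psmb9, had -0.086 and -0.07 in iPS cells, against -1.04 and -0.93 in MEFs. Psmb7, the counterpart of Psmb10, had -0.39 and -0.34 in iPS cells, against -0.46 and -0.51 in MEFs. None of the 3 was called in either cell type. The log2 ratio of Psmb8 minus that of Psmb5 was -4.23 and -4.26 in iPS cells, against -3.52 and -3.47 in MEFs. For Psmb9 minus Psmb6 it was -2.21 and -2.11 in iPS cells, against -2.25 and -2.32 in MEFs, and the gap of iPS cells over MEFs was 1.03 at Psmb9 and 0.91 at Psmb6, which was not called. For Psmb10 minus Psmb7 it was -2.38 and -2.44 in iPS cells, against -1.91 and -1.78 in MEFs. These differences hold for the background fitted on unmarked spots and were not computed over all spots. Over all spots MEF replicates 1 and 2 were at -0.89 and -3.83 for Psmb8, and at -0.26 and -3.25 for Psmb9.

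**Figure D3:**
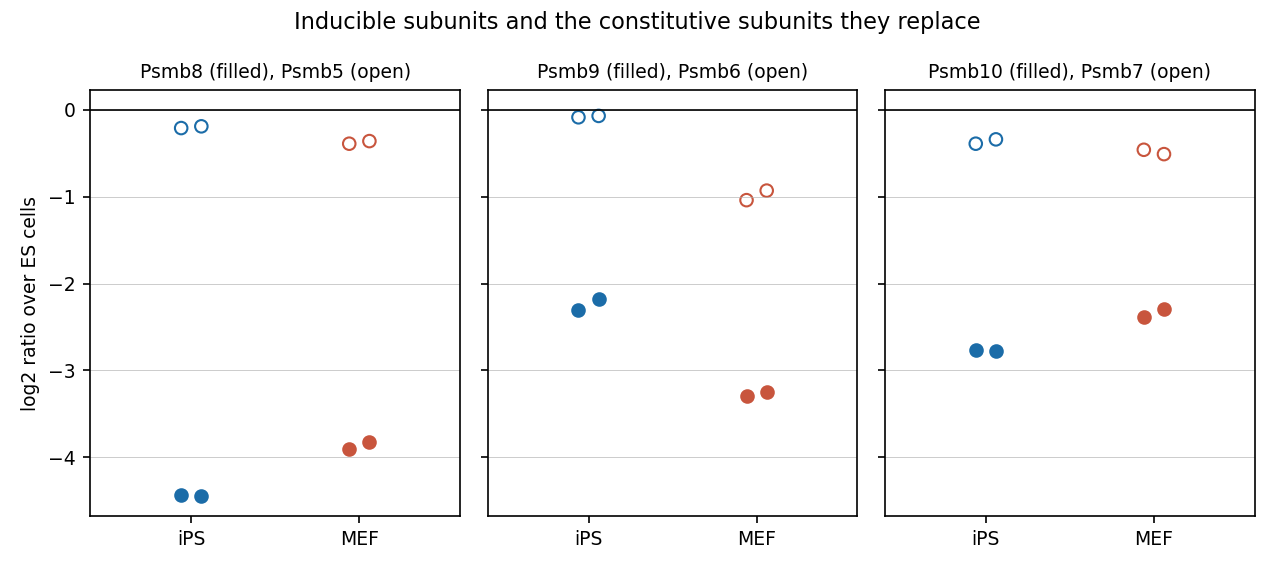
Log2 ratio over ES cells of each inducible proteasome subunit (filled) and of the constitutive subunit it replaces (open) on the 2 iPS and 2 MEF arrays. With the background fitted on unmarked spots, the filled points lie between -4.45 and -2.18, and the open points between -1.04 and -0.07.

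The second question was where the iPS clone differed from the fibroblasts, which the shared ES channel allows. In iPS cells over MEFs 4 of the 16 tested pathway probes fell and 1 rose, where 17.7% of all tested probes fell and 15.4% rose, so the number of calls in the pathway was near that of all probes (33.1% in either direction). The median was -0.78 over the pathway probes and 0.012 over all tested probes. At any fold, 14 of the 16 had an adjusted p below 0.05, as did 79.8% of all tested probes. By gene 2 fell and 1 rose, where 18.8% of all genes fell and 17% rose. The calls were the 3 B2m probes, Tap2 and Psmb9.

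B2m was 45.7-fold lower in iPS cells than in MEFs at A_51_P129006 (-5.51 ± 0.068, 2 arrays each), 38.7-fold at A_51_P129012 (-5.27 ± 0.067) and 2.87-fold at the dim A_52_P105594 (-1.52 ± 0.071). Tap2 was 2.33-fold lower (-1.22 ± 0.073, adjusted p = 3.1e-06). With the background fitted over all spots, the Tap2 call was lost (adjusted p = 0.0871), at a larger difference of -1.83, while the 3 B2m calls were kept. With the scanner software's processed signals Tap2 was at -1.84, A_52_P105594 at -3.25 and Tap1, described below, at -1.43.

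Psmb9 was 2.04-fold higher in iPS cells than in MEFs (1.03 ± 0.073, adjusted p = 8.09e-06), at the edge of the limit. It was not called without iPS replicate 2 (0.97), with median centring (0.99) or when tested against a fold of 2 (adjusted p = 1), and with the background fitted over all spots its sign turned, at -0.49. Its divergent neighbour Tap1 went the other way, at -0.88 ± 0.11, which was not called. Over ES cells, Psmb9 and Tap1 stood at -2.24 and -1.44 in iPS cells, against -3.27 and -0.55 in MEFs, although 225 bases separate their starts.

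Of the 11 probes that were not called, all but Tapbp A_52_P684830 had lower values in iPS cells. Several of them read the same gene, and the median over all tested probes was 0.012. The sign of H2-K1 A_52_P50496 turned under other processing. H2-D1 at A_51_P496996 was just under the limit, 1.99-fold lower in iPS cells (95% confidence interval of the log2 difference -1.17 to -0.82), and passed it without iPS replicate 1 (-1.05) and without MEF replicate 2 (-1.0). It also passed with median centring (-1.11). Tap1 passed without iPS replicate 1, at -1.04, and with the scanner software's processed signals or the series' own values, at -1.43 in both (adjusted p = 0.00116 and 0.00129). H2-K1 lay between -0.79 and -0.57 at 3 probes and at -0.028 at A_52_P50496 (interval -0.20 to 0.14, adjusted p = 0.727). Tapbp was at -0.81 at A_51_P304500 and at 0.081 at A_52_P684830 (interval -0.082 to 0.24, adjusted p = 0.308). Psmb8 was at -0.58 and Psmb10 at -0.44.

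**Figure D4:**
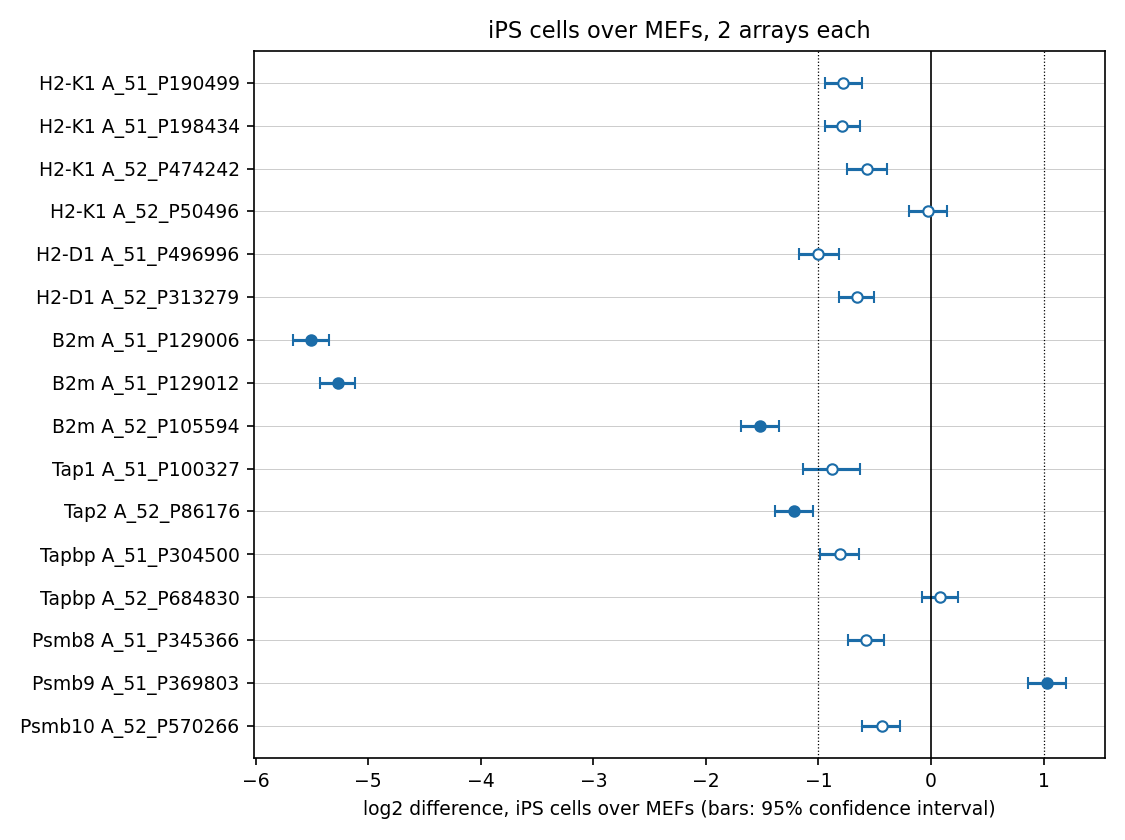
Log2 difference of iPS cells over MEFs for the 16 tested probes, with 95% confidence intervals and dotted lines at 2-fold; filled points were called. B2m lies at -5.51, -5.27 and -1.52, Psmb9 at 1.03, and the other 12 points from -1.22 to 0.081.

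The pathway genes of chromosome 17 have many neighbours that are not of the pathway. Between the outermost pathway probes on chromosome 17, at chr17:33536605-34874777, the array tested 99 other probes. In iPS cells over ES cells 9.09% of these fell and 11.1% rose, and their median log2 ratio was 0.072. In MEFs over ES cells 5.05% fell and 9.09% rose, with a median of -0.027. The stretch holds class II and class III genes as well as class I.

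Related genes of the pathway were taken at their brightest probe. Over all 17620 genes, 20.9% were called for iPS cells over ES cells, 27.4% for MEFs over ES cells and 35.8% for iPS cells over MEFs. Of 15 tested constitutive proteasome and activator genes, 2 fell in iPS cells and 3 fell in MEFs, and 0 rose in either. Psme1 and Psme2, which form the interferon-inducible activator PA28, fell in both: Psme2 was at -2.24 in iPS cells and -1.40 in MEFs, and Psme1 at -1.89 in iPS cells and -1.77 in MEFs. Psme4, a nuclear activator, was the third that fell in MEFs (-1.17), though its other probes were at -0.43 and -0.84. Psme4 was also the 1 gene of the list called in iPS cells over MEFs, at 1.29.

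Of 10 tested loading and trimming genes, 2 fell in iPS cells and none rose. In MEFs 2 fell and 1 rose. The trimming peptidase Erap1 was at -3.61 in iPS cells and -2.19 in MEFs, and the tapasin-related Tapbpl was at -2.5 in iPS cells and -1.54 in MEFs. Calr, a chaperone, rose in MEFs (1.36) and was at -0.15 in iPS cells. In iPS cells over MEFs 3 were lower: Calr at -1.51, Erap1 at -1.42 and the oxidoreductase Pdia3 at -1.31.

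Other class I genes fell in part with H2-K1 and H2-D1. Of 12 tested, 9 fell and 1 rose in iPS cells over ES cells, and 6 fell and 0 rose in MEFs over ES cells. H2-T10 and H2-T22 stood at -3.07 and -2.65 in iPS cells, against -0.047 and 0.02 in MEFs, and both were called in iPS cells over MEFs (-3.02 and -2.67). H2-Bl and H2-Q8 ran in the opposite order: H2-Bl was at -0.46 in iPS cells and -5.09 in MEFs, and H2-Q8 at -1.03 in iPS cells and -2.83 in MEFs. In iPS cells over MEFs these were higher, at 4.62 and 1.80. Cd1d1, a lipid-presenting relative encoded outside the MHC, rose in iPS cells at 2.21. Class I genes are close copies of each other, and the probes may read more than 1 of them.

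Among 18 tested regulators and receptors, 6 fell and 0 rose in iPS cells, and 2 fell and 4 rose in MEFs. Irf1, a transcription factor that activates class I and immunoproteasome genes, was at -3.13 in iPS cells and -3.26 in MEFs, and was not called between them (0.13, adjusted p = 0.104). Ifngr2, a chain of the interferon gamma receptor, rose in MEFs (2.71) and was at -0.96 in iPS cells, so that it was lower in iPS cells than in MEFs by a log2 difference of -3.67. The receptor kinase Jak1 rose in MEFs (1.86). Jak2, its partner kinase, was at -1.66 in iPS cells, although its other probe was at -0.24. Irf2 was not well above background in iPS cells, where it was at least 2.63-fold lower than in ES cells and at least 4.42-fold lower than in MEFs. Rela fell in iPS cells at -1.13, with its other probe at -0.75.

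The class II genes present peptides from outside the cell. Of 6 tested, 1 rose and 0 fell in iPS cells, and 1 rose and 1 fell in MEFs. H2-Eb1, a class II chain, was at 1.5 in iPS cells and 0.33 in MEFs. H2-DMa, which edits class II peptides, was at -0.032 in iPS cells and 2.30 in MEFs. Cd74, the invariant chain, was at -0.86 in iPS cells and fell in MEFs at -1.60.

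**Figure D5:**
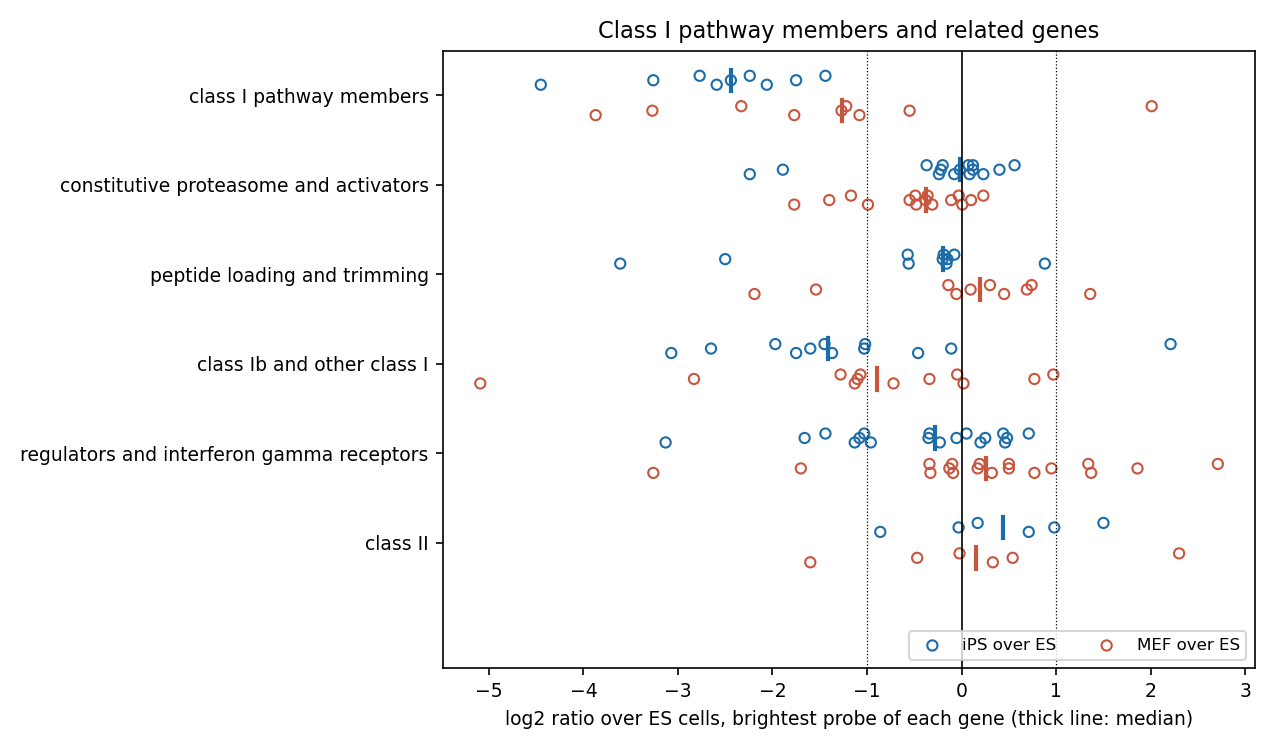
Log2 ratio over ES cells of each gene at its brightest probe, for the 9 class I pathway genes and the tested genes of 5 related lists, with iPS cells above MEFs in each row and a thick line at the median. The medians of the class I pathway are -2.44 in iPS cells and -1.27 in MEFs, and those of the constitutive proteasome list are -0.019 and -0.38.

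The genes nearest to B2m in pattern over the 4 arrays, by the root mean square difference of their log2 ratios, were Plat (0.0772), Antxr2 (0.117) and Ifi202b (0.121). Those nearest to Psmb8 were Unc45b (0.136), Gbp2 (0.173) and a probe that the array names Defcr-rs10 (0.278). Gbp2, an interferon-induced guanylate-binding protein, had log2 ratios of -4.20 and -4.22 in iPS cells, against -3.85 and -3.77 in MEFs. Plat, a secreted plasminogen activator, had -3.14 and -3.25 in iPS cells, against 1.90 and 1.98 in MEFs. With 4 arrays of 2 groups, likeness of this kind reflects 2 group ratios and no finer pattern.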

How the data were processed

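Total RNA (1 µg of each) was labelled and hybridized on 4 arrays. The deposited scanner files, which the authors made in Agilent Feature Extraction 10.5.1.1 per the file headers, hold unnormalized mean intensity and local background intensity per spot for both channels, and probe positions on mm8. A log10 ratio (red over green) was deposited too, made by that software from its processed signals, and the series' values were identical to it. Here the mean intensities were corrected with normexp (offset 50) and normalized by loess (span 0.3) in limma 3.58.1 (R 4.3.3; data.table, version 1.17.8). Spots marked as outliers were left out, also while normexp was fitted, a choice made with the counts under both fits known. Control spots stayed in the normexp fit, had no weight in loess and were left out afterwards. Spots of a probe were averaged. Tested were 24874 probes that were well above background in at least 1 RNA on all its arrays and had 4 values. Group means on the log2 scale were tested with lmFit and eBayes over all 4 arrays (2 residual and 4.91 prior degrees of freedom), and values are given ± SE. The model fit and the calls were tested on simulated log ratios, and the filter on a small made-up case. Background correction, loess and the averaging of spots were not tested in this way.

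The genes and lists were chosen with earlier results of these data known. All probes of the 9 genes were named; of each related list, up to 4 genes with the largest log2 ratio in either direction could be named, with Psmb5, Psmb6 and Psmb7 in addition, and for likeness of pattern the 3 nearest genes. Alternatives were other background corrections, normalizations, filters, probe summaries and thresholds, a replicate block, and each array left out. The number of arrays limits the precision. Promoter sequences are from RefSeq (GRCm38) and probe sequences from the array files.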

Additional observations from a re-analysis of the deposited data

Results flagged for a closer look

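For 5 of the 16 tested probes, from 3 genes, the ratio over ES cells differed between iPS cells and MEFs. This is the test of the difference itself, by limma's adjusted p and at least 2-fold. It called 33.1% of all tested probes, so the number of pathway calls was near that of all probes. The B2m probes A_51_P129006, A_51_P129012 and A_52_P105594 had log2 differences of iPS cells over MEFs of -5.51, -5.27 and -1.52. Tap2 (A_52_P86176) had -1.22, and its call was lost with the background fitted over all spots (limma, adjusted p = 0.0871). Psmb9 (A_51_P369803) had 1.03 and was the 1 pathway probe called higher in iPS cells. It lay under 2-fold without iPS replicate 2 (0.97) and with median centring (0.99). With the background fitted over all spots its sign turned (-0.49). Groups of 2 arrays are too small for a test of single arrays as outliers.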

How the results depend on the processing

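Calls in MEFs rest on the spots in the background fit. With normexp over all spots, 0 probes were called in MEFs over ES cells by limma, pathway probes included (2389 had an unadjusted p below 0.05), and 2637 probes with 3 of the pathway in iPS cells over MEFs. Psmb9 then turned to -0.49 and Tapbp A_52_P684830 to -0.35 in iPS cells over MEFs, and 13 pathway probes were called for iPS over ES cells, without Psmb9 (-2.24) and H2-K1 A_52_P50496 (-1.65). Adding only the 14 spots with a background above 500 to the unmarked ones, chosen after seeing the data, gave 0 calls in MEFs over ES cells, 2467 probes with 3 of the pathway in iPS cells over MEFs, and there -0.49 for Psmb9, -0.35 for Tapbp A_52_P684830 and 0.17 for Psmb10. All spots without these 14 gave 12, 15 and 5 pathway probes, the counts of the unmarked spots. With marked spots kept, the MEF counts were 200 probes with 2 of the pathway, those of iPS cells over MEFs 3086 with 3, and the same 2 values turned to -0.49 and -0.35. With the scanner software's processed signals, 10365 probes were called for MEFs over ES cells, 8419 for iPS over ES cells and 12495 for iPS cells over MEFs, and with the series' own values they were 10354, 8405 and 12486 in number. H2-K1 A_52_P50496 turned to 0.16 in iPS cells over MEFs under both, to 0.043 with quantile normalization of both channels and to 0.025 without iPS replicate 2 (lowest value with 1 array left out, -0.081). Median centring moved the median of all tested probes to 0.16 in MEFs and 0.14 in iPS cells, from near 0. The share of calls that were higher moved to 70% in MEFs and 61.5% in iPS cells, in place of 50.6% and 42.8%. In MEFs over ES cells 7 pathway probes were then called, where 4716 of all tested probes were higher and 2022 lower. With 1 probe per gene, or the mean over the probes of a gene, 9 genes of the pathway were called for iPS over ES cells and 3 for iPS cells over MEFs. At any fold, 20524, 19424 and 19853 probes were called in the 3 comparisons, and 14 pathway probes in iPS cells over MEFs.

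Leaving out 1 array, the pathway count was 12 to 13 for MEFs over ES cells, 15 to 16 for iPS over ES cells and 4 to 7 for iPS cells over MEFs, and that of all probes 6370 to 6582, 4713 to 4828 and 8397 to 8517. With the replicate number as a block the pathway counts were 12, 15 and 5, and 8235 probes were called in iPS cells over MEFs, next to 8234. The labels give no pairing; deviations of arrays with 1 number correlated at -0.11, and with the numbers crossed, chosen after seeing the data, the counts were again 12, 15 and 5.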
